A study of Mus musculus with 16 samples.

Results

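The aminoacyl-tRNA synthetase genes encode the enzymes that join each amino acid to its transfer RNA (tRNA). The 36 genes described here were taken as a named family, 20 for enzymes of the cytosol and 16 for enzymes of mitochondria, out of 21938 protein-coding genes of GENCODE vM21. Chromatin immunoprecipitation followed by sequencing (ChIP-seq) had been performed on mouse clear cell sarcoma (CCS) tumours. The antibodies were against the V5 tag, phosphorylated RNA polymerase II (RNAPOL2) and H3K27ac, a histone mark of active promoters and enhancers. Each antibody had 4 labelled samples, beside 4 labelled samples of input chromatin. Every sample carried the genotype EWSR1::ATF1, and no tumour or tissue without the fusion was among them. The fusion (EA1) was a V5-tagged cDNA placed at the Rosa26 locus behind a loxP-flanked stop cassette and expressed with EGFP, so its level followed the Rosa26 promoter and not that of EWSR1. Tumours arose where TATCre protein had been injected into a limb of mice at 4 weeks of age.

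In every cell, the cytosolic set charges the tRNAs that ribosomes use to translate nuclear messages, and a separate nuclear-encoded set is imported into mitochondria to charge the tRNAs of the mitochondrial genome. Several of the cytosolic enzymes are held together with scaffold proteins in the multisynthetase complex. ATF4, a bZIP factor related to ATF1, raises the transcription of many cytosolic synthetase genes when amino acids are scarce, and does so at C/EBP-ATF response elements (CARE). EA1 keeps the DNA-binding bZIP domain of ATF1, whose palindromic site is the cyclic AMP response element (CRE).

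The data were 3 peak lists, of 10665 V5 peaks, 20375 RNAPOL2 peaks and 27552 H3K27ac peaks. Each peak had a position on mm10 and a score from the authors. No source names the scale of this score, and it was never set against a score of another list. No value of a single tumour is in the lists, nor is any read depth, so the spread between tumours was not measured and an absent peak means only that none is in this list. The study describes V5 site sets of more than a single size, and the list used here is not the largest, so a gene without a V5 peak here may have one in a larger set. Tumours were ground whole, and a low score in all cells cannot be told apart from a high one in few cells. Of 5 melanocyte and CCS markers, Mitf and Pmel had RNAPOL2 peaks at the promoter, Mitf, Pmel and S100b had H3K27ac peaks, and the defining markers Sox10 and Mlana had neither. Among 7 markers of other cells, those of skeletal muscle (Ckm, Acta1 and Myod1) had no promoter peak, the macrophage gene Cd68 had RNAPOL2, and 4 markers of leukocytes and endothelium had H3K27ac. The Cd68 RNAPOL2 peak and the Pecam1 H3K27ac peak did not reach a start of their gene. Their middles lay 3257 and 3661 bp from its nearest start, and they were counted by an edge within 3 kb. No marker of either kind had a V5 promoter peak.

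All 36 synthetase genes carried the marks of active promoters in the tumours, and a minority of them carried a V5 peak. A peak within 3 kb of any transcription start site (TSS) of the gene was counted as a promoter peak. By this rule 36 of 36 genes had an RNAPOL2 peak and 36 of 36 had an H3K27ac peak, each with an exact 95% interval of 90.3% to 100%, whereas 53.5% and 58.6% of all coding genes had them. V5 peaks marked 9 of the 36 genes, or 25% (exact interval 12.1% to 42.2%), beside 16.6% of all coding genes. All 9 also had the other 2 peaks, a combination found at 15.9% of coding genes. Among the 11443 coding genes with RNAPOL2 and H3K27ac promoter peaks, 30.4% had V5. The share of synthetase genes with V5 lay between that of all coding genes and that of coding genes with both active marks, and its interval held both values. Its order against all coding genes turned with stricter V5 lists, to 11.1% beside 11.9% without the lowest-scored 20% of peaks and 5.56% beside 7.3% in the upper 50% of the list. The intervals count genes and cover counting error only.

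**Figure D1:**
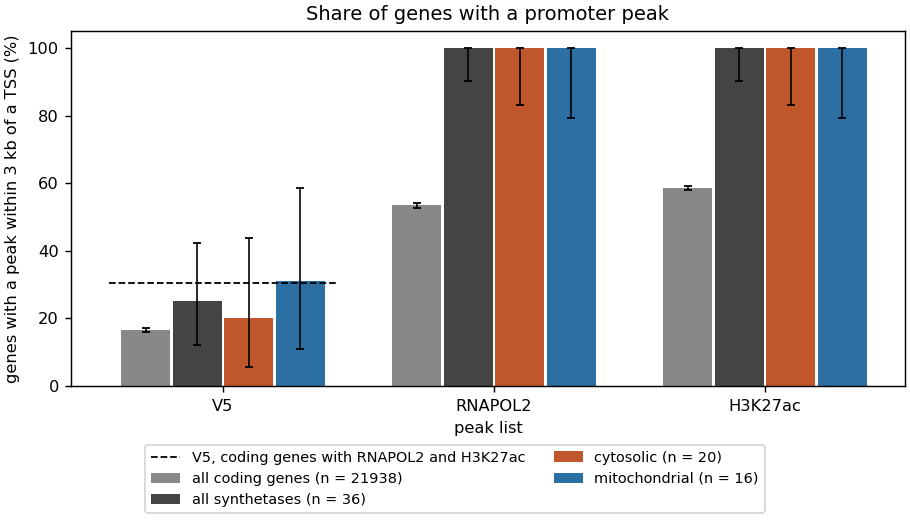
Share of genes with a promoter peak, in percent, for each of the 3 peak lists. Bars stand for all coding genes, all 36 synthetases and the 2 classes, with exact 95% intervals; every synthetase bar reaches 100% for RNAPOL2 and H3K27ac, and the V5 bars lie between 16.6% and 31.2%, with the dashed line at 30.4% for coding genes that have both other peaks.

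A difference between the cytosolic and mitochondrial enzymes was not detectable with these numbers of genes. V5 marked 4 of 20 cytosolic genes (Eprs, Nars, Qars and Vars), a share of 20% with an exact interval of 5.73% to 43.7%. It marked 5 of 16 mitochondrial genes (Ears2, Fars2, Nars2, Wars2 and Yars2), a share of 31.2% with an interval of 11% to 58.7%. The difference, cytosolic minus mitochondrial, was -11.2 percentage points with a Newcombe 95% interval of -38.4 to 16.3, which holds 0. It was -17.5 points with a 5 kb window and -1.25 points in the upper 50% of each list by score.

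Most amino acids had neither or a single enzyme gene marked. Of 16 amino acids with an enzyme of each kind in the list, both carried V5 for 2, asparaginyl (Nars and Nars2) and glutamyl (Eprs and Ears2). The cytosolic gene alone was marked for 2 amino acids, prolyl through the bifunctional Eprs and valyl through Vars. The mitochondrial gene alone was marked for phenylalanyl, tryptophanyl and tyrosyl, and neither gene for 9.

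Eprs stood far apart from the other 8 genes. It encodes the fused glutamyl-prolyl synthetase of the multisynthetase complex and lies on the plus strand of chromosome 1 from 185363044 to 185428360. Its V5 peak at chr1:185361741-185364420 spanned 2680 bp over the first TSS, and its middle lay 22 bp from an Eprs TSS. The peak scored 5852 and was number 55 of the list by score. This score was 19.4 times that of the next synthetase gene and 29.9 times the median of 196 over the 3640 coding genes with a V5 promoter peak. Because the scale of the score is not known, these ratios are not folds of binding. Only 15 coding genes, Eprs included, had a promoter peak scored as high. The peak was wider than 99% of the V5 list. The other marks were also high at Eprs, with an RNAPOL2 score of 2316 (number 1385 of its list) and an H3K27ac score of 5732 (number 96), in an H3K27ac peak 4310 bp wide. Among the synthetase genes that H3K27ac score was the highest, and 99.3% of coding genes with an H3K27ac promoter peak scored lower.

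The 250 bases before the Eprs TSS are shown because they hold 3 of the 4 copies of TGACG in the peak. TGACG is the core that each side of the palindromic CRE, TGACGTCA, shares, and capitals mark it on either strand (CGTCA where it lies on the minus strand). The stretch is chr1:185362794-185363043, plus strand, mm10.

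Eprs upstream: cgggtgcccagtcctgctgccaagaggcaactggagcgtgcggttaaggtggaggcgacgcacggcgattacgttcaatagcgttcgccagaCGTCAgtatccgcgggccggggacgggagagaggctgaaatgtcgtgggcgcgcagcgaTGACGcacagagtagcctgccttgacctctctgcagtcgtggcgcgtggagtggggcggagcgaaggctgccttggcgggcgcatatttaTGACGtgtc

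The 3 copies lie 156, 97 and 7 bp before the TSS. None of them is part of a full TGACGTCA, which is absent from the whole Eprs peak. Downstream of the first TSS the peak holds CARE letters at 2 places, TGATGCAA and TGATGAAA, and 1069 bp before the TSS it holds the AP1 motif TGAGTCA.

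Among the mitochondrial enzymes the scores fell between 35 and 301. Nars2, the asparaginyl enzyme, had the highest of them, 301 (number 4108 of the list), in a peak at chr7:96951131-96951940 with its middle 14 bp from a TSS. Ears2, the glutamyl enzyme, had a score of 218 (number 5394) at chr7:122066701-122067370, 24 bp from a TSS. Its start faces that of Ubfd1 at a distance of 55 bp, so the peak belongs to both promoters by position. Yars2, the tyrosyl enzyme, had a score of 142 (number 7227) at chr16:16302321-16303050, with the middle 280 bp upstream of the TSS. These 3 peaks lay on both sides of the coding median of 196, with Yars2 below it.

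The remaining mitochondrial genes were nearer to the end of the list. Wars2, the tryptophanyl enzyme, had a score of 84 (number 9095) at chr3:99141021-99141620, 155 bp from a TSS. Fars2, the phenylalanyl enzyme, had a score of 35 (number 10564) at chr13:36117371-36117920, 9 bp from a TSS, and shares its divergent promoter with Lyrm4, which starts 114 bp away.

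The other cytosolic genes were weakly marked. Nars, the asparaginyl enzyme, had a score of 87 (number 9075) at chr18:64516211-64516740, 4 bp from a TSS. Vars, the valyl enzyme, had a score of 74 (number 9617) at chr17:35000801-35001330, 14 bp from a TSS. The peak counted for Qars, the glutaminyl enzyme, had a score of 37 (number 10553) at chr9:108516991-108518180, and its middle lay 2834 bp from the nearest Qars TSS and 14 bp from the TSS of the neighbouring gene Qrich1. It was the single peak of the 9 whose nearest coding TSS belonged to another gene. The peak's edge was 2240 bp from a Qars TSS, inside the 3 kb limit, and the nearest peak outside the limit was that of Cars2 at 4618 bp.

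**Figure D2:**
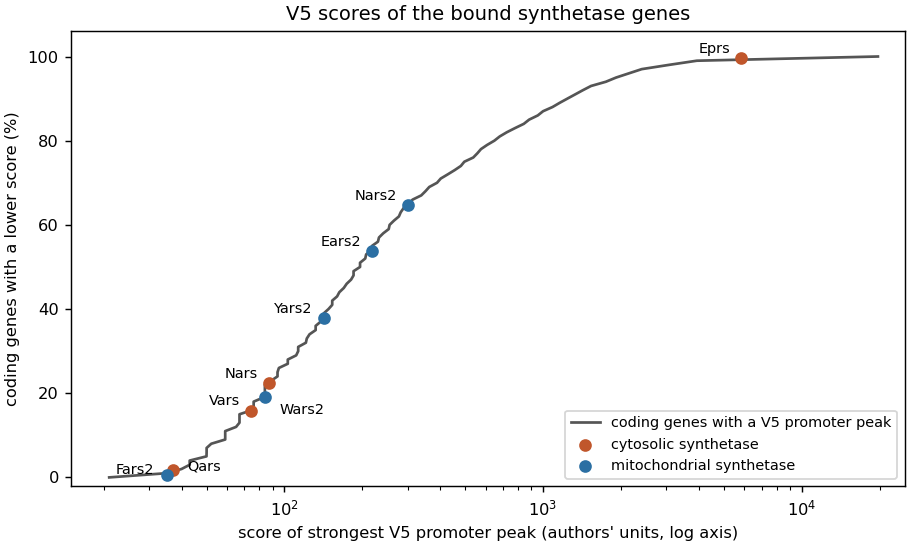
Score of the strongest V5 promoter peak (log axis) against the share of the 3640 marked coding genes that score lower, in percent. The line stands for those coding genes and the 9 labelled points for the synthetase genes; Eprs lies at 99.6%, Nars2 at 64.7%, Ears2 at 53.7%, and the other 6 below the coding median of 196.

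Scores of 6 of the 9 genes were below the coding median, and 5 of the 9 were in the lowest-scored 20% of the V5 list (103 or less). The median over the 9 genes was 87. Counted without that lowest 20%, 4 genes remained marked (Eprs, Nars2, Ears2 and Yars2), 1 cytosolic and 3 mitochondrial. In the upper 50% of the list by score, Eprs and Nars2 were left.

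To show which bases lie under the peaks, the copy of TGACG closest to the middle of the peak is printed with its flanks, in the orientation that reads TGACG, for the marked genes other than Nars. Capitals mark TGACG. Vars has no such copy in its peak. The stretches are 30 bases long, on mm10, at chr1:185363023-185363052 (plus strand, Eprs), chr7:96951519-96951548 (plus, Nars2), chr7:122067065-122067094 (minus, Ears2), chr16:16302561-16302590 (plus, Yars2), chr3:99141453-99141482 (plus, Wars2), chr9:108517819-108517848 (plus, the Qars and Qrich1 peak) and chr13:36117861-36117890 (minus, Fars2).

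Eprs: ggcgcatatttaTGACGtgtcgtagcgtgc
Nars2: gcgagcacggggTGACGtagctcagttgca
Ears2: gccgagcggaagTGACGcgcgaaggagccc
Yars2: ctgcctgtactgTGACGaggctctcattaa
Wars2: cctgaaagagtgTGACGttatcagaaactt
Qars: cccttgtcctcgTGACGtccggggcagcgg
Fars2: gcgccgccatctTGACGggaagaggccagg

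The copies lay 2 bp from the middle of the Nars2 peak, 43 bp from that of Eprs, 45 bp from that of Ears2, and farther out in the others, up to 248 bp for Qars. TGACG was present in the peaks of 7 of the 9 genes, beside 79.7% of the 3595 V5 peaks at coding promoters. The full CRE was in 0 of the 9, beside 14.0% of those peaks. The AP1 motif was in the peaks of 2 genes, Eprs and Nars (13.8% of coding promoter peaks). The CARE letters TGATGNAA were in the same 2 (8.79%). These shares were not adjusted for width. The Eprs peak spans 2680 bp, beside a median of 710 bp for the strongest V5 promoter peaks of coding genes, and has more room for a match.

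**Figure D3:**
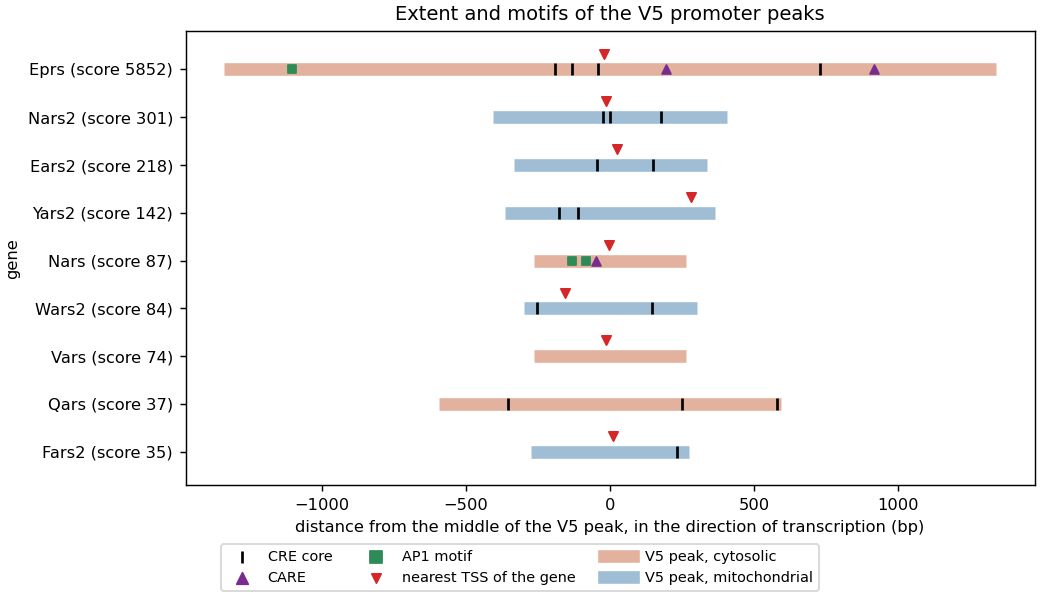
Extent of the V5 promoter peak at each of the 9 genes, drawn in the direction of transcription as distance in bp from the peak's middle, with motif positions and the nearest TSS of the gene. The Eprs bar is 2680 bp wide and the others 530 to 1190 bp; the TSS lies within the peak at 8 genes, and the Qars TSS is outside the plotted peak.

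RNAPOL2 and H3K27ac at the synthetase promoters were of ordinary strength. RNAPOL2 scores had a median of 812.5 over the 36 genes, from 265 at Lars to 2625 at Qars, beside a median of 912 over all coding genes with a peak (quartiles 448 and 1638). For H3K27ac the median was 806, from 273 at Pars2 to 5732 at Eprs, beside 863 (quartiles 372 and 1675). The classes were close, at 851 and 805 for RNAPOL2 and 801 and 806 for H3K27ac, cytosolic first. Of the 36 genes, 16 were above the coding median for RNAPOL2 and 18 for H3K27ac. RNAPOL2 peaks were centred at the start, with a median distance of 56 bp between the peak's middle and the nearest TSS of the gene in both classes.

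Some cytosolic genes were high in RNAPOL2, among them Eprs (2316), Kars, the lysyl enzyme that serves both compartments (2173, in a peak slightly nearer to the facing start of Terf2ip), and Dars, the aspartyl enzyme (2137). Vars2, the mitochondrial valyl enzyme, was the highest of its class at 2028. The RNAPOL2 score of 2625 counted for Qars, and its H3K27ac score of 3005, belong to peaks nearest the Qrich1 TSS. At the Qars 5′ end itself the peaks scored 389 for RNAPOL2 and 582 for H3K27ac. The leucyl gene Lars was low in both lists, with 265 and 339. RNAPOL2 and H3K27ac did not always rank alike. For Aars, the alanyl enzyme, 18.8% of coding genes with an RNAPOL2 promoter peak scored lower (Aars score 356). In the H3K27ac list 84.5% of such genes scored lower than Aars (2231). For Vars2 these shares were 82.6% for RNAPOL2 (2028) and 44.6% for H3K27ac (744).

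**Figure D4:**
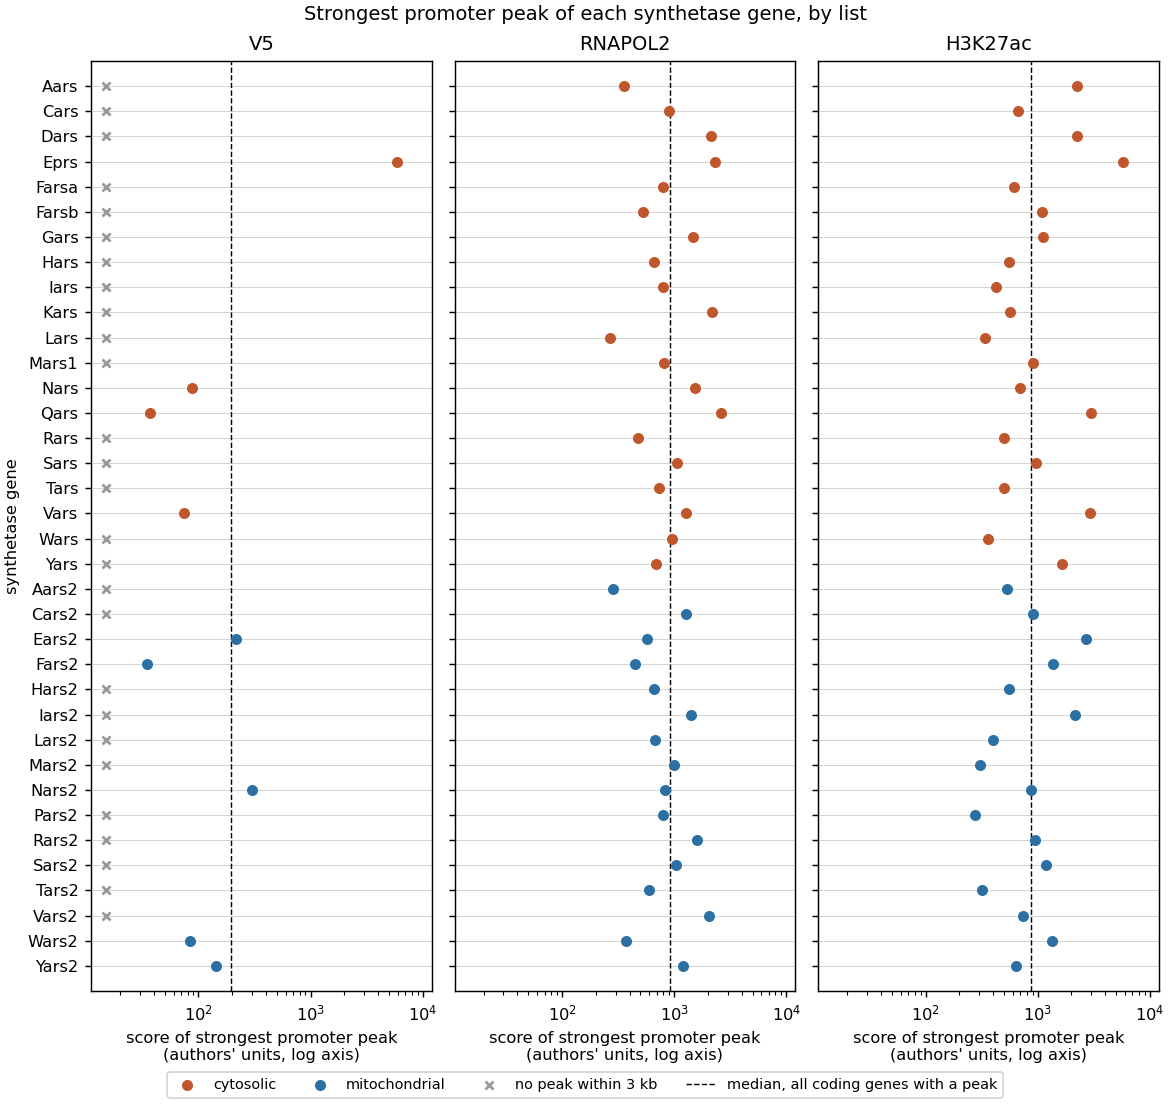
Score of the strongest promoter peak of each of the 36 genes in the V5, RNAPOL2 and H3K27ac lists (log axes), with cytosolic genes above mitochondrial ones, crosses for genes with no peak within 3 kb, and a dashed line at the median of coding genes with a peak. Crosses mark 27 genes in the V5 panel and none elsewhere, and Eprs is the point farthest to the right for V5 (5852) and H3K27ac (5732).

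The 9 genes with V5 had higher median scores for the active marks than the 27 without it. RNAPOL2 scores had a median of 1199 (369 to 2625) with V5 and 791 (265 to 2173) without. H3K27ac scores had a median of 1367 (645 to 5732) with V5 and 620 (273 to 2231) without. The ranges of the groups overlapped in both lists. The same order held over all coding genes, at 1402.5 and 760 for RNAPOL2 and 1561.5 and 656 for H3K27ac. These values were not tested, and several genes of both groups share peaks with a neighbour. With Qars given by the peaks at its own 5′ end, the median over the 9 genes was 820 for RNAPOL2, close to the 791 without V5, and 1350 for H3K27ac. Counting only peaks whose nearest coding TSS was the gene's own, RNAPOL2 had a median of 1009.5 over 8 genes with V5 and 790.5 over 22 without. For H3K27ac these medians were 1109 over 8 genes and 645.5 over 24.

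The annotated start mattered for Tars2, the mitochondrial threonyl enzyme. Its outermost annotated 5′ end had no H3K27ac peak within 3 kb, and the H3K27ac peak at chr3:95754081-95755160 (score 321) and the RNAPOL2 peak at chr3:95754431-95755810 (score 599) lay at its internal TSSs. Counted at the 5′ end alone, 35 of the 36 genes had H3K27ac. Divergent promoters, with a coding start on the other strand within 1 kb, were found at 4 cytosolic and 5 mitochondrial genes, beside 11.8% of all coding genes and 20.5% of those with both active marks. Hars and Hars2, the cytosolic and mitochondrial histidyl enzymes, face each other and share the same RNAPOL2 peak (657) and H3K27ac peak (559), without V5.

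The 27 genes without a V5 promoter peak had none in the gene body either, where 5.36% of coding genes without a V5 promoter peak and 7.71% of those that also had both active marks held a V5 peak. Their nearest V5 peak lay between 4.62 kb (Cars2) and 361 kb (Kars) away, with a median of 56.3 kb. It lay within 10 kb for 3 genes, beside 5.69% and 8.62% of the same sets of coding genes, and within 50 kb for 12, beside 29.6% and 41.2%. At Cars2, the mitochondrial cysteinyl enzyme, that peak scored 27. At Aars it lay 5014 bp from a TSS and scored 754. At Mars1, the methionyl enzyme, it scored 103 and was the promoter peak of Ddit3, which encodes the stress factor CHOP. This peak, at chr10:127290291-127290900, lay 6775 bp from an internal TSS of Mars1. The 5′ end of Mars1 is farther from it, at chr10:127311786. For Iars2, the mitochondrial isoleucyl enzyme, the nearest V5 peak was the Eprs peak, 32345 bp from its start.

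CARE letters close to the 5′ end were found in some cytosolic genes. From 250 bases before to 50 after the gene's 5′ end, TGATGNAA was found on either strand at 4 of 36 genes, beside 3.84% of coding genes. The 4 were Cars (cysteinyl), Gars (glycyl, for both compartments), Iars (isoleucyl) and Tars (threonyl), all counted as cytosolic. Of 16 mitochondrial genes 0 had it, which is near the 3.84% of coding genes. None of the 4 had a V5 promoter peak, but this depends on the window, since the V5-marked Eprs and Nars hold TGATGCAA 89 and 3 bp from internal TSSs, beyond its end. These sites are printed, with those of Eprs, because they are the letters through which ATF4 is known to act. Each stretch is 30 bases, in the orientation that reads TGATGNAA, which is in capitals. The stretches are chr7:143600045-143600074 (plus strand, Cars), chr6:55037960-55037989 (minus, Gars), chr13:49682126-49682155 (minus, Iars), chr15:11399655-11399684 (plus, Tars), chr1:185363259-185363288 (minus, the first Eprs site) and chr1:185363981-185364010 (plus, the second Eprs site).

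Cars: cttccagaatcTGATGCAAccgcggcgccg
Gars: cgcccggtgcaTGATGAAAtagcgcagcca
Iars: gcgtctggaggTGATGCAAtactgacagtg
Tars: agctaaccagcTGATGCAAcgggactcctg
Eprs first: cacccacgcgcTGATGCAAcccgcgcgggt
Eprs second: ccatgtggggcTGATGAAAtttcttgcaac

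Within 1 kb to either side of the 5′ end, 14 of the 36 genes held TGATGNAA, beside 22.4% of coding genes. They were 12 cytosolic and 2 mitochondrial genes (Nars2 and Wars2). Of 12 cytosolic genes listed as ATF4-linked from general knowledge, 11 were among them (all but Sars, the seryl enzyme), and of the 8 other cytosolic genes only Farsb, the beta subunit of the phenylalanyl enzyme. Since ATF4 acts through these letters, the list and the motif are not independent, and this split is no test of either. V5 marked 2 of the 12 ATF4-linked genes, Eprs and Nars, and 2 of the other 8, Qars and Vars. Both marked ATF4-linked genes held CARE letters inside the V5 peak. Over all coding genes, 9.37% of those with TGATGNAA in the shorter window had V5, and 16.9% of those without it. Where the RefSeq start was used instead of the GENCODE 5′ end, 27 of the 36 genes were matched and 5 had TGATGNAA (Aars, Gars, Iars, Tars and Yars), beside 3.99% of 16523 coding genes.

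**Figure D5:**
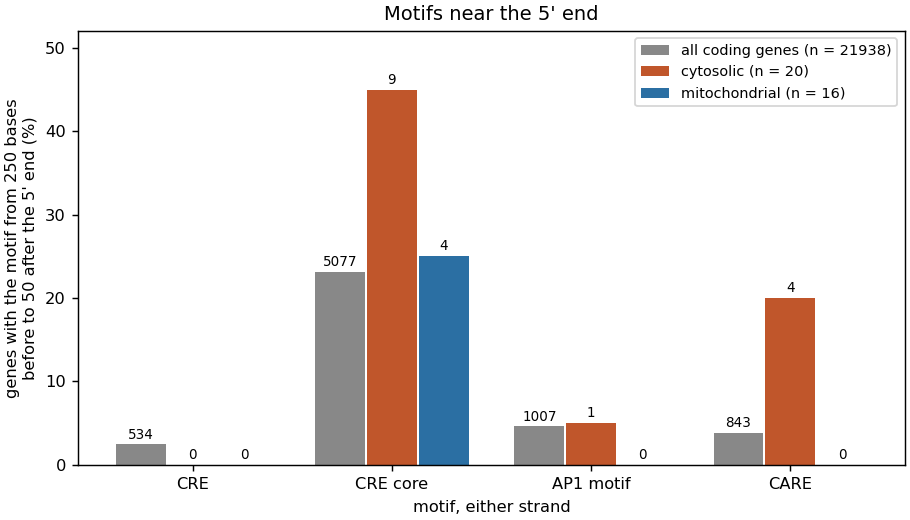
Share of genes, in percent, with each motif on either strand from 250 bases before to 50 after the 5′ end, for all coding genes, cytosolic and mitochondrial synthetases, with the number of genes over each bar. CARE stands at 20% for cytosolic and 0% for mitochondrial genes, beside 3.84% of all coding genes, and the CRE at 0% for both, beside 2.43%.

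CRE letters near the 5′ end were counted in the same windows. The full TGACGTCA was in 0 of 36 genes in the shorter window, beside 2.43% of coding genes, and within 1 kb it was in 1, Mars1, beside 4.02%. Of coding genes with TGACGTCA in the shorter window, 62.2% had a V5 promoter peak. The core TGACG, which also matches inside TGACGTCA, was in 13 of 36 genes, beside 23.1%, with 9 of 20 cytosolic and 4 of 16 mitochondrial. V5 marked 4 of the 13 genes with the core and 5 of the 23 without it, whereas over all coding genes the shares were 35% and 11.1%. TGAGTCA, the AP1 motif, was in 1 gene, Nars, beside 4.59%. TGATGNAA shares no match with the other motifs. A match describes the letters of the window, and no match says nothing of the factor.

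Around the enzymes, V5 marked several genes that work with them. In the multisynthetase complex it marked 2 of 8 enzyme genes, Eprs and, through the peak at Qrich1, Qars, and of the 3 scaffold genes it marked Aimp1, with a score of 2040 (number 431), and Aimp2, with 132, but not Eef1e1. In all, 5 of 12 genes for partners of tRNA charging had a V5 promoter peak, a share of 41.7%. Gatc, a subunit of the mitochondrial enzyme that turns glutamyl-tRNA into glutaminyl-tRNA, had a score of 2059 (number 424), whereas its partner subunits Gatb and Qrsl1 had no V5 peak. The others were Dtd1, which removes D-amino acids from tRNA and was marked at an internal TSS (230), and Xpot, the tRNA exporter (85). RNAPOL2 and H3K27ac marked all 12.

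In the ATF4 pathway 13 of 28 genes had V5, a share of 46.4%, with RNAPOL2 at 24 and H3K27ac at 26. Among its factors were Atf4 itself (798), Atf3 (300), Ddit3 (103) and the partners Cebpb (402) and Cebpg (84), and Atf5 had none. Feedback and sensor genes were Ppp1r15a, a subunit of the eIF2alpha phosphatase (625), Eif2ak3, the kinase PERK (59), and Ddit4, an mTORC1 inhibitor (35), whereas Eif2ak4, the kinase GCN2 that senses uncharged tRNA, had none, nor had Sesn2, Trib3, Chac1 and Eif4ebp1. Amino acid supply was represented by Psph, of serine synthesis (482), and the transporters Slc7a5 (215), Slc7a1 (184), Slc38a2 (148) and Slc3a2 (113). The V5 peaks of Slc7a5 and Slc7a1 lay apart from the strongest RNAPOL2 promoter peaks of these genes. For Slc7a5 the 2 were at chr8:121895941-121896650 and chr8:121906831-121908040, and for Slc7a1 at chr5:148373101-148373660 and chr5:148399261-148400200. The middle of the Slc7a1 V5 peak was 1834 bp from the nearest TSS of the gene. Asns, the asparagine synthetase, did not have a V5 peak. Nor did Phgdh and Psat1 of serine synthesis, Shmt2 and Mthfd2 of one-carbon metabolism, Aldh18a1 and Pycr1 of proline synthesis, Cth of cysteine synthesis, or the cystine transporter Slc7a11. These lists were read beside the 16.6% of all coding genes and the 30.4% of coding genes with both active marks, with no test.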

How the data were processed

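The authors, by their own account, aligned the reads to mm10 with BWA-MEM (0.7.10-r789), removed duplicate reads, called peaks with MACS2 (2.2.6) against input, with broad peaks for H3K27ac, and discarded denylisted regions. They deposited 1 peak list per antibody, with a whole-number score for each peak. The study speaks of a significance score without giving its scale, and replicates were averaged for its coverage tracks, but how they were combined for the peak lists is not given in the sources used here. More samples are named for V5 and RNAPOL2 in the methods than the 4 in the labels.

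From these lists, a promoter peak was one that shared at least 1 bp with the window within 3 kb of any TSS of GENCODE vM21. The strongest peak of a gene gave its score. Mars1 was matched to Mars in vM21 through RefSeq synonyms. Shares have exact Clopper-Pearson 95% intervals. Motifs were searched on both strands of GRCm38.p6, the assembly of mm10, and counted the same way in all coding genes. RefSeq starts came from a table of the same assembly. Counting ran in Python 3.11.15 with pandas 2.3.3, scipy 1.17.1, numpy 2.4.6 and matplotlib 3.10.9 and was tested on simulated data.

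The members and gene lists were chosen with earlier results of these data known, and no test was run over them. A gene of the tRNA charging list is not reported here. By the rule for named genes, all members may be named, those with a V5 promoter peak have full values, and sequences are shown for up to 6 members that hold TGACGTCA or TGATGNAA in the peak and lie outside chromosome 18, which left Eprs. The other printed stretches, the RefSeq starts, the nearest-TSS rule and the scores from own peaks were chosen after seeing the data. Alternatives were the window, the TSSs used, overlap of the peak's middle and stricter V5 lists.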

Additional observations from a re-analysis of the deposited data

How the results depend on the processing

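The 3 lists hold no values per tumour and no read depth, so no replicate could be left out, and faint binding cannot be told apart from none. No paired analysis was possible because the lists carry no sample numbers. The count of 9 genes with V5 stayed between 8 and 10 under other windows and TSS choices and under the nearest-TSS rule, and the cytosolic share was below the mitochondrial one in every setting run. It depended on the score: without the lowest-scored 20% of V5 peaks it was 4 (1 cytosolic and 3 mitochondrial, and 4 with all 3 peaks), and in the upper 50% of each list it was 2 (1 of each class, and 2 with all 3 peaks). At these settings the share of members with V5, 11.1% and 5.56%, was below that of coding genes, 11.9% and 7.3%, whereas it was above at every other setting for which both were computed. RNAPOL2 and H3K27ac counts were 35 or 36 in every setting run.

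The share of all coding genes with V5, 16.6%, was 15.2% at 1 kb, 17.9% at 5 kb, 14.3% at the 5′ end alone, 15.5% at TSSs of coding transcripts, 11.9% without the lowest 20% and 7.3% in the upper 50%. Among coding genes with both active marks, 30.4% became 28.8%, 31.9%, 28%, 29.1%, 21.5% and 14.2% in the same order. Near the 5′ end, TGACGTCA went from 0 genes to 1 within 1 kb, and TGATGNAA from 4 to 14 within 1 kb and to 2 inside V5 peaks, where only 9 genes were searched. Of the recomputed values, these 23 moved beyond the limits set, which were 1.5 times for a count or a median score and the 95% interval of the first value for a share or a difference, and 53 stayed within them.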
